A study of Mus musculus with 6 samples.

Results

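The nuclear genes of the respiratory chain and ATP synthase were examined in whole pancreatic islets of mice with and without a Klf4 deletion directed to alpha cells. Members were the genes whose symbols begin with the subunit names of complexes I to V (Nduf, Sdh, Uqcr, Cox and Atp5, pseudogenes left out) and whose mean raw count over the 6 libraries was at least 50. The names matched 87 genes of 55536 in the table, and 77 of them reached that mean: 37 of complex I, 4 of complex II, 8 of complex III, 11 of complex IV and 17 of complex V. In all, 15820 genes of the table reached it, and these are called the expressed genes below. The lowest member was Atp5s, with a mean of 742 counts, and the nearest gene below the minimum was Cox7a1, with 43.3. The other 9 genes left out were Ndufb4c (mean 29.7), Cox6b2 (28.3), Cox6c2 (5.33), Cox7b2 (2.0), Ndufs6b (1.33), Ndufa11b (1.0), Cox8b (0.667), Cox8c (0) and another Atp5o row (0). The symbols leave out some true subunits, such as Ndufab1, Cox4i1 and Cyc1, which are given with the other genes of the pathway.

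The 3 control libraries came from Klf4+/+;Gcg-iCre mice and the 3 knockout libraries from Klf4fl/fl;Gcg-iCre mice, so both groups carried the glucagon-driven Cre recombinase and differed by label in the floxed Klf4 allele. The strain is given as C57B1/6J, and the labels used here state neither age nor sex. Polyadenylated RNA of whole islets was sequenced, so a gene lost from alpha cells alone is diluted by the beta, delta and other cells. In such bulk samples, fewer cells of a type and less RNA per cell cannot be told apart. Nothing in the labels says that the libraries come from separate animals, and p-values then measure the spread between these samples. Total counts ranged from 101277200 to 110243918 per library.

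Normalized counts of the targeted gene Klf4 were 3148, 2879 and 2015 in the control libraries and 2340, 2540 and 2277 in the knockout libraries. These ranges overlapped and Klf4 was not called (log2 fold change -0.17 ± 0.147 SE, DESeq2 adjusted p = 0.774). Whole-gene counts in mixed islet cells include Klf4 RNA of all other cell types. The control libraries held 77938 to 108105 normalized counts of the X-inactivation RNA Xist and no counts of the Y-linked genes Kdm5d, Eif2s3y, Uty and Ddx3y. The knockout libraries held 12.4 to 30.2 of Xist and over 2880 of each Y-linked gene. In every comparison given here, genotype and sex cannot be told apart. Of the 77 members, 74 lie on autosomes and 3 on the X chromosome.

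In the inner mitochondrial membrane, complex I (NADH dehydrogenase) and complex II (succinate dehydrogenase) pass electrons to ubiquinone, complex III passes them to cytochrome c, and complex IV reduces oxygen. The proton gradient this builds drives ATP synthase, complex V. In islet endocrine cells the ATP made this way couples nutrient oxidation to membrane potential and hormone release. Most subunits are encoded in the nucleus, and a small set in each complex other than II comes from mitochondrial DNA.

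Many nuclear subunit genes are known to share binding motifs near their start for NRF1, for GABP and other ETS factors, and for YY1. Sequences of 4 members are shown because they include the called member and matches to NRF1, ETS, GC box and CACCC motifs, and were picked with the matches known. Promoter sequences came from RefSeq (GRCm38.p6, 250 bases before to 50 after each start). Of the 77 members, 64 matched a window, 5 of them more than 1, giving 69 windows. The lines give the stretch before the start that holds no annotated exon, 5′ to 3′ on the gene's strand, with motif matches on either strand in capitals. Cox7a2l, the 1 member that passed the main test, lies on the minus strand at chr17:83514334-83514583 and held a GC box 22 bases before its RefSeq start, which is inside the longer gene span annotated by GENCODE. Cox6a1 (minus strand, chr5:115348982-115349129) held 2 kinds of NRF1 match, of which GCGCATGCG reads on both strands in overlapping positions, and 2 GC boxes. Atp5l (minus strand, chr9:44920752-44920992) held an NRF1 match 241 bases before its start. Uqcr11 (minus strand, chr10:80406831-80407071) held an ETS match 66 bases and a CACCC match 171 bases before its start.
Cox7a2l: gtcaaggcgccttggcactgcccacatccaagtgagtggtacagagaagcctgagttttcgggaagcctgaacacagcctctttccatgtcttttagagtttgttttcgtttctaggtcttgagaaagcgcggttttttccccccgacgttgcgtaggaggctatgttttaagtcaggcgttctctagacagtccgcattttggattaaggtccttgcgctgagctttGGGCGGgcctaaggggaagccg
Cox6a1: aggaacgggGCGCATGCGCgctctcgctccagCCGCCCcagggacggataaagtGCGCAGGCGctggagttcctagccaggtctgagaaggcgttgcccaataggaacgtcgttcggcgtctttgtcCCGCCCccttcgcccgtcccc
Atp5l: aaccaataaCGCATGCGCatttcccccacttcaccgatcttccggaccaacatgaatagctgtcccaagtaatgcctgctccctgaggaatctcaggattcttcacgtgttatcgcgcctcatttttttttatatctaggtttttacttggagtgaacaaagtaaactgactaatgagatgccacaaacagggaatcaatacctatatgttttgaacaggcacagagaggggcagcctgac
Uqcr11: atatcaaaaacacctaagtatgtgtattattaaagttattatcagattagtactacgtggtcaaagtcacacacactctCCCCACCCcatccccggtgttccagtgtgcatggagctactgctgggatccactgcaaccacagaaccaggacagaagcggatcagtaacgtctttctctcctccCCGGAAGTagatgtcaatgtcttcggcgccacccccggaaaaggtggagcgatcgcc

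Motifs were searched as fixed letters on both strands of the 300 bases. An NRF1 match (GCGCATGCG or GCGCAGGCG) was in 23.2% of the members' windows, in 8.30% of the windows of expressed genes, and in 4.35% of all promoters. A YY1 match (AAGATGGCG or CAAGATGGC, which can overlap) was in 13.04%, 3.28% and 1.92% of the same sets. An ETS match (CCGGAAGT or CCGGAAGC) was in 15.9%, 11.96% and 6.42%. The GC box bound by SP and KLF factors (GGGCGG) was in 39.1% of members' windows, 60.4% of windows of expressed genes and 35.7% of all promoters. The CACCC forms bound by KLF factors (CCACACCC or CCCCACCC) were in 20.3%, 15.5% and 13.05%. Counted by gene, a CACCC match was in 18.8% of members and 18.3% of expressed genes. With the first form of each motif alone, the CACCC share of windows was 2.90% in members and 3.63% in expressed genes, and the ETS share 7.25% and 7.28%. These shares describe letters, not occupied sites. In all, 29 of the 64 matched members held an NRF1, ETS or YY1 match, NRF1 in 15 genes, ETS in 11 and YY1 in 9. The YY1 matches lay in 6 genes of complex I and 3 of complex V. The median log2 fold change between genotypes was -0.13 in the 15 members with an NRF1 match and -0.11 in the 49 without. For ETS it was -0.12 in the 11 members with a match and -0.11 in the 53 without, and for YY1 -0.08 in 9 and -0.12 in 55. It was -0.11 and -0.12 in the 26 members with and the 38 without a GC box, and -0.11 in both the 12 with and the 52 without a CACCC match.

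Differences between genotypes were small. DESeq2 called 1 of 77 at an adjusted p under 0.05, Cox7a2l, which was lower in the knockout, against 2.19% of all 17797 genes given an adjusted p (0.657% in that direction), and 0 members were called higher, against 1.53%. The edgeR quasi-likelihood test called 0 members, against 0.115% of all genes, with 9 members at an unadjusted p under 0.05, all lower, against 3.78% of all genes in that direction. DESeq2 had 8 members at an unadjusted p under 0.05, all lower, which is 10.4% of members against 3.83% of all genes tested in that direction. The normalized counts of the 3 knockout libraries lay below all 3 controls in 13 of 77 members, or 16.9%, against 8.55% of expressed genes. They lay above all controls in 0 members, against 9.42%.

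The fold changes were small and nearly all of one sign. The log2 fold change was below 0 in 76 of 77 members, against 51.9% of expressed genes. Its median was -0.11, a difference of -7.27%, against -0.01 for expressed genes. Members are measured in the same 6 libraries and do not count as independent observations of genotype. A trend with gene length was also removed in each library, taken from the deviations of log2 normalized counts from each gene's mean. The median over the members was then -0.08, with 66 of 77 below 0. The 95% interval lay within 0.5 log2 units of 0 for 75 members, and the median standard error was 0.087.

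**Figure D1:**
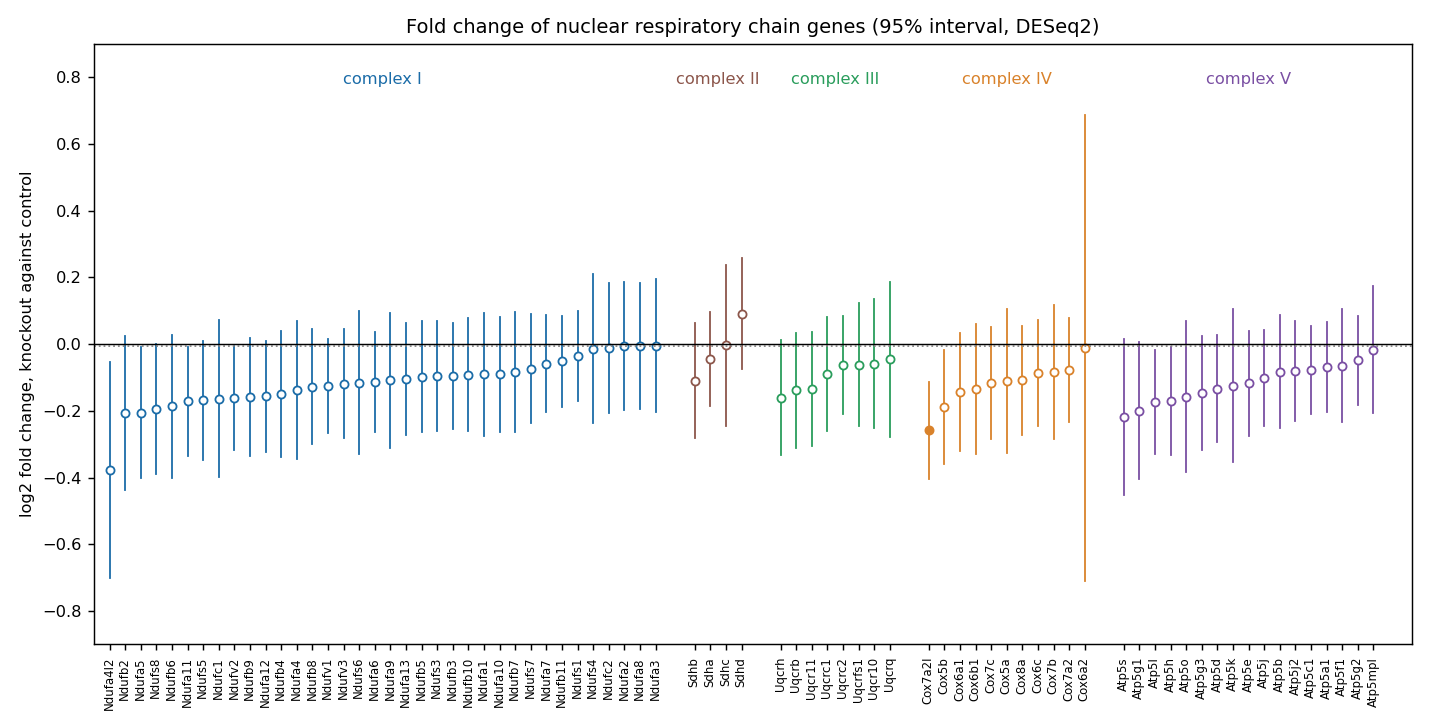
Log2 fold change of 76 members, knockout against control (y axis), grouped by complex, with the 95% interval of the DESeq2 fit; the filled point passed the adjusted p of 0.05, and the dotted line is the median of all expressed genes. Points lie below 0 except for Sdhd, and Cox6a2 has the widest interval.

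The values by library showed that the groups overlapped. For each gene the log2 normalized count in a library was set against its own mean over the 6 libraries, and the median was taken over the 77 members. This median was -0.06 in control 1, 0.07 in control 2 and 0.14 in control 3, and -0.09, -0.06 and -0.01 in knockout libraries 1, 2 and 3. Control 3 and control 2 were thus the highest, while control 1 stood between knockout 2 and knockout 3. Control 3 held the highest value of 53 members and control 2 of 21, whereas control 3 held the highest value of 25.6% of all expressed genes. Knockout 3 exceeded control 1 in 55 of 77 members. Without control 3 the median log2 fold change of the members was -0.07, with 64 of 77 below 0, and without control 1 it was -0.16. Members made up 0.450%, 0.468% and 0.486% of all counts in the control libraries and 0.431%, 0.430% and 0.454% in the knockout libraries.

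**Figure D2:**
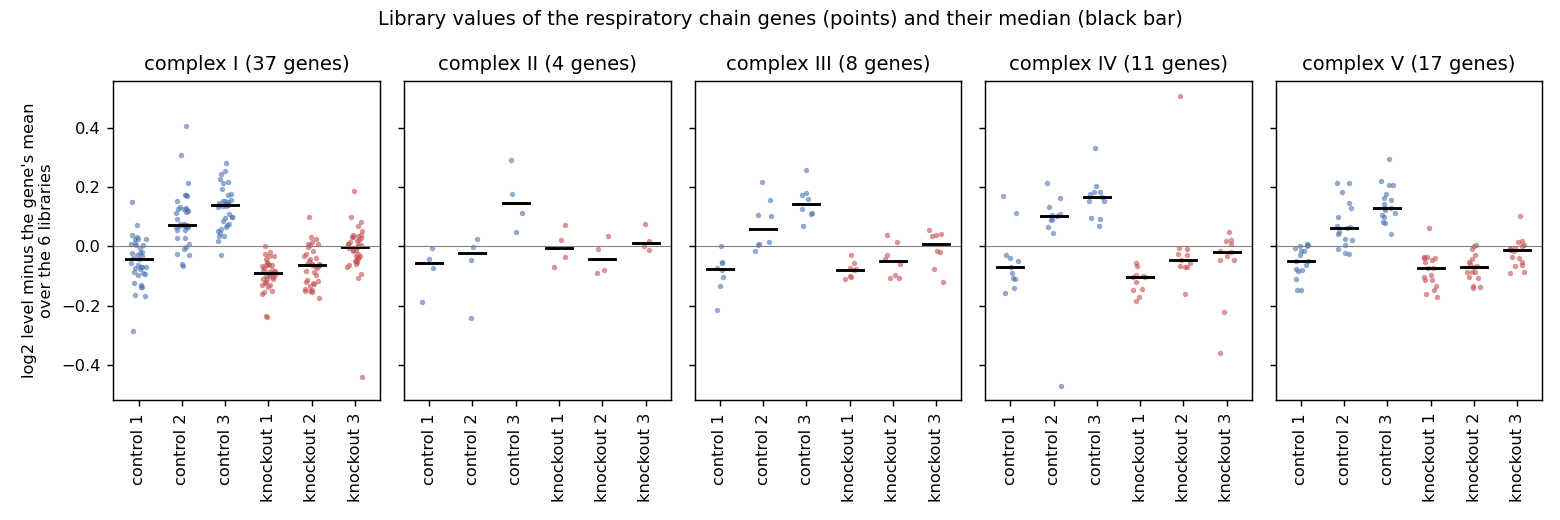
Log2 normalized count of each member minus its mean over the 6 libraries (y axis), by library (x axis) and complex; points are genes, blue for control and red for knockout, and black bars are medians. In complexes I, III, IV and V the bars of control 2 and control 3 stand above the others, and the bar of control 1 lies among those of the knockout.

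Levels of different genes were compared per length, as RPKM, counts scaled to transcript length in kilobases and to the library total. Over the members, the mean control level ran from 5.12 to 210.7 RPKM, a 41.1-fold range, with a median of 52.8. The median gene of complex V stood at 90.8 RPKM, of complex IV at 84.1, of complex III at 74.6, of complex II at 41.7 and of complex I at 33.9. Expressed genes had a median of 6.02. The highest were the genes of the ATP synthase head, Atp5b, the beta subunit with the catalytic sites, at 211 ± 16.7 RPKM (SD, n = 3), and Atp5a1, the alpha subunit, at 190 ± 7.94. Atp5l, a membrane-part subunit (186 ± 14.2), Cox8a, a small complex IV subunit (183 ± 11.1), and Cox7a2l (177 ± 3.71) came next. From Atp5a1 down to Cox7a2l, each gene in this order lay within 1 SD of the one before. The lowest were Ndufa4l2 (9.51 ± 1.38) and Atp5s (5.12 ± 0.246).

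**Figure D3:**
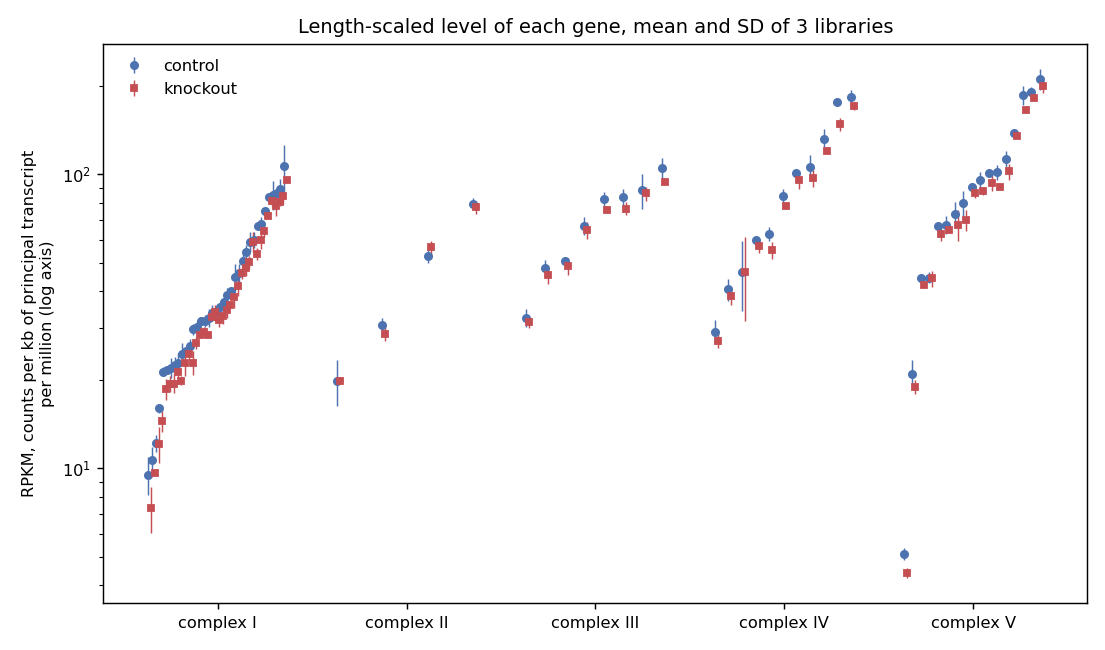
Level of each member per length in RPKM (log y axis), mean and SD of 3 libraries, by complex, with genes ordered by their control mean; circles are control and squares knockout. Levels run from 5.12 RPKM for Atp5s to 210.7 for Atp5b, and the squares lie close to the circles.

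Complex I genes had a median log2 fold change of -0.11, 37 of 37 were below 0 and 0 of 37 were called. Ndufs1, which carries iron-sulfur clusters of the electron input arm, had 6593, 6740 and 7015 normalized counts in controls and 6498, 6524 and 6827 in the knockout. Its groups overlapped and its log2 fold change was -0.04 ± 0.069. Ndufv1, the flavin-binding subunit where NADH is oxidized, had 5352, 5368 and 5769 in controls and 5055, 4926 and 5145 in the knockout. The groups did not overlap, and the difference of -0.12 ± 0.072 missed the threshold (DESeq2 adjusted p = 0.538). Ndufs7, which carries the last cluster before ubiquinone, had 3125, 3167 and 3273 against 3039, 2828 and 3218, with overlap and a log2 fold change of -0.07 ± 0.083.

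Leaving out control 1 changed which members passed. Without it, Cox6a1 (-0.23, adjusted p = 0.0359) and Ndufv2 (-0.22, adjusted p = 0.0471) passed in DESeq2, and Cox7a2l did not.

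Ndufa4l2 had the most negative fold change of all members. It is a paralog of Ndufa4 known as a hypoxia-inducible gene, and both are counted with complex I here by symbol, although Ndufa4 protein is now placed in complex IV. Ndufa4l2 (chr10:127514967-127517154, plus strand, GENCODE M21) had 897, 1071 and 819 normalized counts in controls and 685, 866 and 595 in the knockout. Knockout 2 was above control 3, so the groups overlapped. The log2 fold change was -0.38 ± 0.165 (DESeq2 adjusted p = 0.299, edgeR adjusted p = 0.513), with exons that overlap Shmt2 on the opposite strand. Ndufa4 had a log2 fold change of -0.14 ± 0.106 (DESeq2 adjusted p = 0.719), and Ndufa4l2 made up 10.2% ± 2.26 of the pair's RPKM in controls and 8.65% ± 1.90 in the knockout (SD, n = 3).

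At the other end of complex I stood Ndufa3, an accessory subunit, with -0.004 ± 0.101. The X-linked subunits Ndufa1 and Ndufb11 had log2 fold changes of -0.09 ± 0.095 and -0.05 ± 0.070, and neither was called. The 7 complex I genes whose groups did not overlap were Ndufa5, Ndufa6, Ndufa11, Ndufb4, Ndufb9, Ndufv1 and Ndufv2, named here after their values were seen. Their log2 fold changes ran from -0.11 for Ndufa6 to -0.20 for Ndufa5.

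Complex II, which has no mitochondrially encoded subunit, had the median nearest 0, at -0.02 over its 4 genes, and 0.07 without control 3. Sdhd, a membrane anchor subunit, was the 1 member with a fold change above 0. It had 6159, 7007 and 7254 normalized counts in controls and 7384, 6976 and 7399 in the knockout. The groups overlapped through knockout 2, and the log2 fold change of 0.09 ± 0.085 missed the threshold (DESeq2 adjusted p = 0.796). The flavoprotein Sdha had 23630, 22969 and 25638 against 24072, 22444 and 23524, a log2 fold change of -0.04 ± 0.072. The iron-sulfur subunit Sdhb had 3436, 3595 and 3997 against 3366, 3319 and 3540, a log2 fold change of -0.11 ± 0.087 with overlap. Whether complex II differed from the other complexes was not tested.

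Complex III genes had a median log2 fold change of -0.08, with 8 of 8 below 0 and 0 called. Uqcrh, the hinge protein at the cytochrome c side, had 5462, 6583 and 5950 normalized counts in controls and 5445, 5441 and 5217 in the knockout. The groups were separated by the small gap between control 1 and knockout 1, and the log2 fold change was -0.16 ± 0.088 (DESeq2 adjusted p = 0.496). The core protein Uqcrc1 (-0.09 ± 0.087) and the Rieske iron-sulfur protein Uqcrfs1 (-0.06 ± 0.094) both overlapped between groups. Uqcrq, a small subunit, was nearest 0, at -0.04 ± 0.119.

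Complex IV held the member that passed. Cox7a2l lies at chr17:83501918-83517330 on the minus strand (GENCODE M21). It is also known as a factor that joins complexes III and IV in supercomplexes, a role that these RNA counts do not measure. It had 19623, 19489 and 20522 normalized counts in controls, and 16452, 17812 and 15595 in the knockout. Every knockout library was below every control, with knockout 2 nearest to them. The mean was 19878 ± 562 in controls and 16619 ± 1118 in the knockout (SD, n = 3), a log2 fold change of -0.26 ± 0.075, or -16.4% (95% interval -24.4% to -7.48%). The DESeq2 adjusted p was 0.0304 and the edgeR adjusted p 0.283. The call was lost without control 1, control 2, knockout 1 or knockout 3 (DESeq2 adjusted p up to 0.284), and when the length trend was removed. The log2 fold change was -0.31 to -0.22 with a library left out and -0.23 with the length trend removed. Of the 50-base windows of Cox7a2l transcripts, 13.8% also occur in another gene, most in Gm6969, and how such reads were counted is not given in the sources used here.

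The nuclear subunits Cox5a and Cox5b, which lie against the catalytic core, had log2 fold changes of -0.11 ± 0.110 and -0.19 ± 0.087 (DESeq2 adjusted p = 0.345 for Cox5b). Cox5b had 5177, 5956 and 5906 normalized counts in controls and 4951, 4758 and 5245 in the knockout, where knockout 3 exceeded control 1. The X-linked Cox7b had -0.08 ± 0.102.

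Several complex IV subunits come in tissue isoforms, one of them typical of heart and skeletal muscle. Cox6a1, the widely expressed form, had 6979, 8233 and 8528 normalized counts in controls and 6989, 7225 and 7281 in the knockout. Its muscle-type partner Cox6a2 was also present, with 3615, 2317 and 4042 in controls and 2824, 4570 and 2503 in the knockout. It ranged within each group, lowest in control 2 and highest in knockout 2, and had the largest variation of all members, a within-group coefficient of variation of 30.6% against a median of 6.44%. Cox6a2 made up 26.0% ± 6.01 of the pair's RPKM in controls and 27.5% ± 6.42 in the knockout (SD, n = 3). Its log2 fold change was -0.01 ± 0.357, and its 95% interval of -38.9% to 61.1% leaves sizeable differences undetectable with these libraries. Cox6a2 lies on chr7:128205435-128206387 and overlaps exons of Itgad on the opposite strand. The 6 skeletal and cardiac muscle markers summed to 1.17 to 1.73 CPM in any library (CPM gives the counts relative to all counts of the library).

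The other tissue-restricted partners were scarce. Cox7a1, a muscle-type form, made up 1.97% ± 0.721 of the RPKM of Cox7a1 and Cox7a2 in controls, and Cox6b2, a testis-type form, made up 0.689% ± 0.197 of that of Cox6b1 and Cox6b2. Cox8b had 0 counts in 5 libraries and 4 counts in knockout 2, while Cox8a stood at 183 RPKM in controls. The widely expressed forms Cox6b1 (-0.13 ± 0.0996), Cox7a2 (-0.08 ± 0.079) and Cox8a (-0.11 ± 0.083) were not called.

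Complex V genes had a median log2 fold change of -0.12, with 17 of 17 below 0 and 0 called. The alpha and beta subunits of the head were the most abundant members. Atp5a1 had 47801, 47268 and 52550 normalized counts in controls and 46728, 47712 and 46363 in the knockout, a log2 fold change of -0.07 ± 0.069 with overlap. Atp5b had 39305, 40268 and 47329 against 39032, 39203 and 41582, a log2 fold change of -0.08 ± 0.087, with control 3 above the rest. The rotor stalk subunit Atp5c1 had 10848, 10970 and 11413 against 10029, 10796 and 10657. Its groups did not overlap, and the log2 fold change of -0.08 ± 0.068 missed the threshold (DESeq2 adjusted p = 0.771).

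The c-ring subunit of ATP synthase is encoded by 3 genes with the same mature protein. Atp5g2 made up 41.9% ± 1.67 of their RPKM in controls, Atp5g3 34.0% ± 1.29 and Atp5g1 24.0% ± 1.42 (SD, n = 3). In the knockout the shares were 43.9% ± 1.52, 33.3% ± 0.942 and 22.7% ± 0.890. Atp5g1 had 4479, 4772 and 5689 normalized counts in controls and 4141, 4219 and 4653 in the knockout, with knockout 3 above control 1. Its log2 fold change was -0.20 ± 0.105 (DESeq2 adjusted p = 0.468), against -0.15 ± 0.087 for Atp5g3 and -0.05 ± 0.068 for Atp5g2. Of the Atp5g2 windows of 50 bases, 38.3% occur in another gene, the highest share of any member, so its level is uncertain. Atp5s, an accessory factor rather than a core subunit, had 740, 791 and 860 against 655, 702 and 696. It was the most negative of complex V at -0.22 ± 0.119 (DESeq2 adjusted p = 0.488), and Atp5mpl, a small membrane subunit, was nearest 0 at -0.02 ± 0.098.

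**Figure D4:**
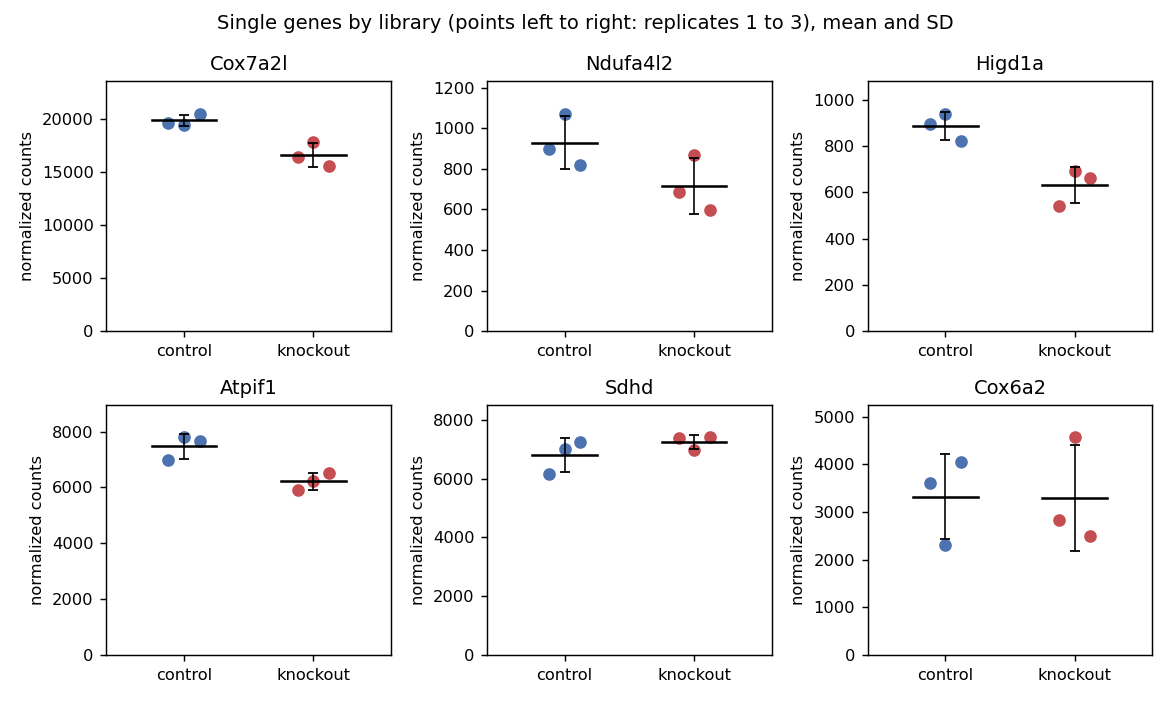
Normalized counts of 6 genes in each library (points, replicates 1 to 3 from left to right; y axes start at 0), with the mean and SD of 3 libraries per genotype. Knockout and control do not overlap for Cox7a2l, Higd1a and Atpif1, and overlap for Ndufa4l2, Sdhd and Cox6a2.

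Among 82 other nuclear genes of the pathway (subunits outside the symbols above, assembly factors, regulators, inhibitors and carriers), DESeq2 called 2, both lower in the knockout, and edgeR called 0. The 2 calls are 2.44% of these genes, near the 2.19% of all genes, and 5 genes had an unadjusted p under 0.05 in each tool, against 9.03% of all genes tested in DESeq2. Higd1a, a hypoxia-induced protein that binds complex IV, had 895, 941 and 821 normalized counts in controls and 542, 693 and 661 in the knockout. Every knockout library was below every control, and the log2 fold change was -0.49 ± 0.136 (DESeq2 adjusted p = 0.0222, edgeR adjusted p = 0.283). Atpif1, which inhibits the ATP-hydrolyzing action of ATP synthase, had 6970, 7796 and 7673 in controls and 5920, 6224 and 6524 in the knockout. Its groups did not overlap either, and the log2 fold change was -0.27 ± 0.080 (DESeq2 adjusted p = 0.0431, edgeR adjusted p = 0.259). The Higd1a call was lost without control 1, control 2, knockout 1 or knockout 3, and the Atpif1 call without control 2 or any 1 of the knockout libraries.

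Of 49 assembly factors, which insert cofactors and join subunits, DESeq2 called 0 and edgeR 0, with 0 at an unadjusted p under 0.05 in either. Their median log2 fold change was -0.04, and 35 of 49 were below 0. Of 18 regulators of nuclear or mitochondrial gene expression, both tools called 0, with 2 at an unadjusted p under 0.05 in each, and the median was -0.02. The coactivator Ppargc1a had 544, 597 and 518 normalized counts in controls and 472, 534 and 411 in the knockout, a log2 fold change of -0.23 ± 0.151 (DESeq2 adjusted p = 0.634). Nrf1 (-0.02 ± 0.080), Gabpa (-0.01 ± 0.076), the nuclear receptor Esrra (-0.07 ± 0.095) and Tfam, which packages mitochondrial DNA (-0.08 ± 0.082), overlapped between groups. Of 77 mitochondrial ribosomal protein genes, both tools called 0, with 1 at an unadjusted p under 0.05 in DESeq2 and 3 in edgeR. Their median was -0.07, with 62 of 77 below 0, and over the libraries their median was again highest in control 3 (0.10) and lowest in knockout 1 (-0.07).

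The 13 subunits encoded in mitochondrial DNA had a median log2 fold change of -0.19, with 12 below 0. DESeq2 called 0, with 4 at an unadjusted p under 0.05, all lower. This is 30.8% of the list, against 3.83% of all genes tested in that direction. The edgeR test called 0, with 0 at that level. Knockout and control overlapped in all 13 genes, and the median was -0.10 with the length trend removed. Without control 1, DESeq2 called 4 of the 13 genes, mt-Nd1, mt-Nd2, mt-Nd4 and mt-Nd5. Over the fits with a library left out, 153 to 952 genes of the whole table were called. The order of the libraries differed from that of the nuclear members: control 2 was highest (0.20) and knockout 3 lowest (-0.15), whereas knockout 3 was the highest knockout library for the nuclear members. The complex IV core gene mt-Co1 had 828357, 893344 and 903274 normalized counts in controls and 825566, 856761 and 761186 in the knockout. Counts of mt-Co2 and mt-Co3 stayed below 1700 in every library. Mean control levels of the 13 genes ran from 4.69 to 5409 RPKM. How reads matching several places were counted is not given, so counts this far apart may not reflect RNA levels.

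**Figure D5:**
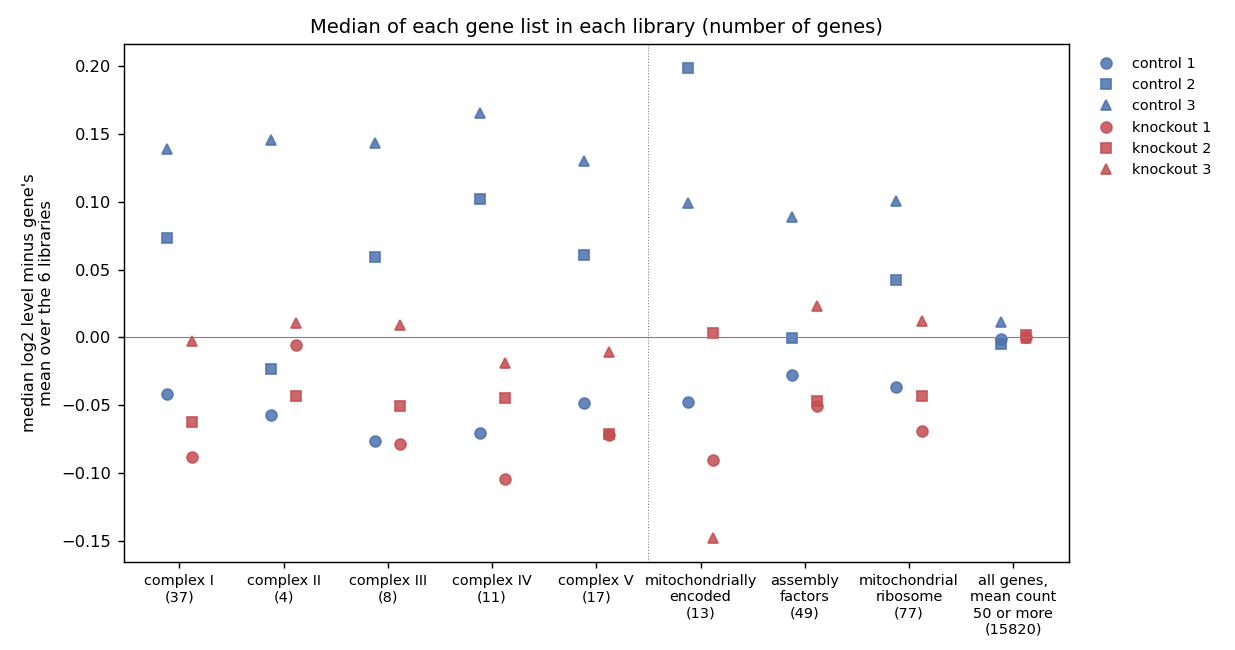
Median over each gene list of the log2 normalized count minus the gene's mean over the 6 libraries (y axis), for the 5 complexes and, right of the dotted line, for mitochondrially encoded genes, assembly factors, mitochondrial ribosomal genes and all expressed genes; symbols are libraries and the number of genes is in parentheses. Control 3 is highest in each complex, control 1 lies among the knockout libraries in each complex other than II, and the mitochondrially encoded genes have another order.

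Summed markers of 6 cell types did not overlap between genotypes, and calls below are by DESeq2 at an adjusted p under 0.05. The 10 acinar markers summed to 5500 to 11237 CPM in controls and 14385 to 19783 in the knockout, with 1 of 10 called higher (Try5). The 7 mesenchymal markers summed to 468 to 627 and 897 to 978, with 5 of 7 called higher. The 10 alpha cell markers summed to 43754 to 61625 in controls and 34253 to 40437 in the knockout, with 4 called lower, Gcg among them, and 1 higher, Tm4sf4. The duct list ran from 251 to 275 and from 293 to 349, with 2 of 6 called higher. A single marker with a mean of 23755 counts held most of the duct sum, and the next had 4677. Sox9 (-0.11) and Cftr (-0.51) had log2 fold changes below 0 and were not called. The adipocyte list ran from 15.1 to 17.8 and from 21.1 to 25.3, with 1 called higher and 4 of its 6 markers at mean counts under 10. A single marker with a mean of 2064 counts held nearly all of the adipocyte sum, and the next had 32.0. The lymphocyte list ran from 23.5 to 25.5 in controls and from 20.7 to 22.0 in the knockout, with 0 of 6 called and 1 at a mean count under 10. In this and other lists, some markers of low count were given no adjusted p and so could not be called. The sums overlapped for the other lists. These were macrophage and myeloid (94.5 to 109 and 98.7 to 114, 2 of 6 called higher), beta (185983 to 204319 and 202110 to 205459, median log2 fold change -0.06, 1 of 11 called lower), and the delta, PP, endothelial, smooth muscle and pericyte, Schwann and glial, and skeletal and cardiac muscle lists, with 0 called. The part of these cell types in the members' values was not tested.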

How the data were processed

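RNA was counted per gene in 3 control and 3 knockout islet libraries. The authors deposited raw counts per gene, and the submitters' processing notes name FastQC, STAR, featureCounts, DESeq2 and mm10. Strand setting, treatment of reads matching several places and read pairing are not given in the sources used here. Of genes with 1 to 10 counts, 85.9% to 88.2% had an even count, so counts are not single independent fragments, and no counting interval is used. All 55536 gene IDs matched GENCODE M21.

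Genes with at least 10 counts in total were tested with DESeq2 1.42.0 (R 4.3.3; median-of-ratios scaling, Wald test, genotype as the only term, Benjamini-Hochberg over all genes given an adjusted p), the tool the series' design names. The edgeR 4.0.16 quasi-likelihood test was the alternative. Both were first tested on simulated counts with log2 changes of 1 and 2. DESeq2 recovered 97% and 100% of these and edgeR 99% and 100%, with 15 and 10 false calls. That test does not cover differences as small as those of the members. Normalized counts are counts divided by size factors, and ± after a log2 fold change is its standard error. RPKM was computed here from the best supported, shortest principal transcript. Shared sequence was the share of 50-base windows of a gene's transcripts found in another gene.

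Named by rule were core subunits, tissue isoforms, X-linked members, every called member, the extremes of each complex, the genes nearest the count minimum, called pathway genes and Ppargc1a, Nrf1, Gabpa, Esrra and Tfam. Members and lists were chosen with earlier results of these data known, so no test over a list is given. Alternatives were other scalings and filters, no independent filtering, removal of a length trend (loess, span 0.3), a replicate block and leaving out each library. Results of 1 member and 1 marker gene are not reported here by name.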

Additional observations from a re-analysis of the deposited data

How the results depend on the processing

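The median log2 fold change of the members stayed below 0 under the 15 alternatives, from -0.16 without control 1 to -0.07 without control 3, with 64 to 76 of 77 members below 0. With a library left out, medians ran from -0.16 to -0.07 for complex I and from -0.10 to 0.07 for complex II. They ran from -0.15 to -0.02 for complex III, -0.19 to -0.07 for complex IV and -0.15 to -0.08 for complex V. DESeq2 called 0 to 3 members when each library was left out, 0 to 6 other pathway genes (without control 1, 4 of the 6 were mitochondrially encoded) and 153 to 952 genes in all. The edgeR test called 0 members, 0 other pathway genes and 29 genes in all. Removal of the length trend left 0 members, and no count filter or no independent filtering left 1 other pathway gene (Higd1a). No pairing by replicate number was visible in the counts: same-numbered libraries had correlations of deviations of -0.05, -0.06 and 0.01. With 3 libraries per group these values cannot exclude a pairing. With a replicate block, 1 member, 1 other pathway gene (Atpif1) and 405 genes were called, and the members' median was -0.10.

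The named genes below changed sign. With the length trend removed, the log2 fold change became 0.022 for Atp5mpl, 0.040 for Cox6a2, 0.0097 for Ndufa1, 0.043 for Ndufa3 and 0.00031 for Ndufb11. That of Ndufa3 was 0.0039 with total-count scaling and 0.00013 with the block, and Gabpa was 0.00042 with total-count scaling. With each library left out, ranges were -0.13 to 0.0058 for Atp5b, -0.061 to 0.039 for Atp5mpl, -0.32 to 0.15 for Cox6a2, -0.082 to 0.045 for Ndufa3, -0.078 to 0.0033 for Sdha, -0.13 to 0.015 for Uqcrfs1, -0.15 to 0.084 for Uqcrq and -0.034 to 0.040 for Gabpa. The median of complex II was 0.07 without control 3. The cause was not tested. Precision is limited by 3 libraries per group, with 95% intervals that exclude 0 for 8 of 77 members. Counts are uncertain for 25 members that overlap an exon on the opposite strand and for 13 that share over 10% of their windows with another gene.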
